A study of Mus musculus with 6 samples.

Results

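The 10 genes described here are regulators and markers of upper-layer projection neurons of the neocortex: Cux1, Cux2, Pou3f1, Pou3f2, Pou3f3, Lhx2, Rorb, Mef2c, Lmo4 and Mdga1. They were taken by symbol from a table of read counts for 23420 genes, and all 10 were found and passed the filter on low counts, which left 14618 genes for testing. The table covers RNA sequencing of mouse neocortex at embryonic day 18.5, with 3 libraries labelled as Tshz3 mutant and 3 labelled as wild type. Each library was a pool of cortices from 3 to 4 embryos, drawn from several litters. Tshz3 encodes a teashirt-family transcription factor with zinc fingers, and the study's title speaks of its deletion. The sources used here do not give the allele, its zygosity, the strain or the sex of the embryos, and no other allele or agent is named for either group.

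Neurons of the upper layers are born late in cortical development and send their axons mainly to other cortical areas, many of them through the corpus callosum. Layer 4 neurons, born in the same period, receive input from the thalamus. CUX and class III POU transcription factors are known for upper-layer identity and migration, Rorb for layer 4 identity, and LIM-domain proteins such as Lhx2 and Lmo4 for early patterning and for the choice between callosal and subcerebral fates. At embryonic day 18.5 these neurons have mostly been generated and are settling in the cortical plate.

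Total counts per library ran from 18569383 to 24147810, and each of the 10 genes had at least 928 reads in every library. Tshz3 itself was at 89.8 to 99.2 CPM, a count scaled to the size of its library, in mutant-labelled libraries and at 78.7 to 89.3 CPM in wild type. This count covers the whole gene and gives no check of the labels, so the term mutant-labelled is used below. All 6 markers of neocortical identity, among them Emx1, Neurod6 and Tbr1, passed the filter. Their summed level was 1354 to 1399.6 CPM in mutant-labelled and 1263 to 1461 CPM in wild-type libraries. Emx1 alone was lower in mutant-labelled libraries without overlap, at a mean of 21.4 against 26.0 CPM, as were 6.09% of all tested genes. It passed neither edgeR test used below (adjusted p = 0.433, and 0.0693 with library number as a block). Libraries with the same number in their titles deviated together from their group means, with correlations across genes of 0.614, 0.514 and 0.467 for numbers 1, 2 and 3. Values from a fit with the number as a block, called paired, are therefore given beside unpaired ones. The labels do not say what the numbers share. With 3 libraries per group such correlations can also arise without true pairs.

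Without pairing, edgeR's quasi-likelihood test called none of the 10 regulators at a threshold of 0.05 on the adjusted p. It called 0.0752% of all tested genes, 0.0479% as higher and 0.0274% as lower. At an unadjusted p under 0.05, 2 of the 10, Pou3f1 and Cux1, passed, against 7.09% of all tested genes. DESeq2 without pairing also called none of them, against 0.722% of the genes it tested. With pairing, edgeR called 2 higher, Pou3f1 and Mdga1, and none lower, against 1.97% of tested genes called higher, 1.49% called lower and 3.46% in all. DESeq2 with pairing called these and Mef2c, the last as lower, against 1.54% of the genes it tested. Leaving out a pair leaves 1 residual degree of freedom and changed the number of calls over all genes as well as among the regulators. Without pair 1 the paired edgeR fit called Pou3f1 and Mef2c, against 2.03% of all tested genes. Without pair 2 it called Pou3f1, Mdga1, Cux1, Cux2 and Mef2c, against 12.8%. Without pair 3 it called no regulator, against 0.421%, while the fold changes of Pou3f1 and Mdga1 were as large as with all pairs. All differences were small. The log2 fold changes, mutant-labelled over wild type, ran from −0.19 for Mef2c to 0.29 for Pou3f1 and had a median of 0.08, against −0.01 over all tested genes.

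**Figure D1:**
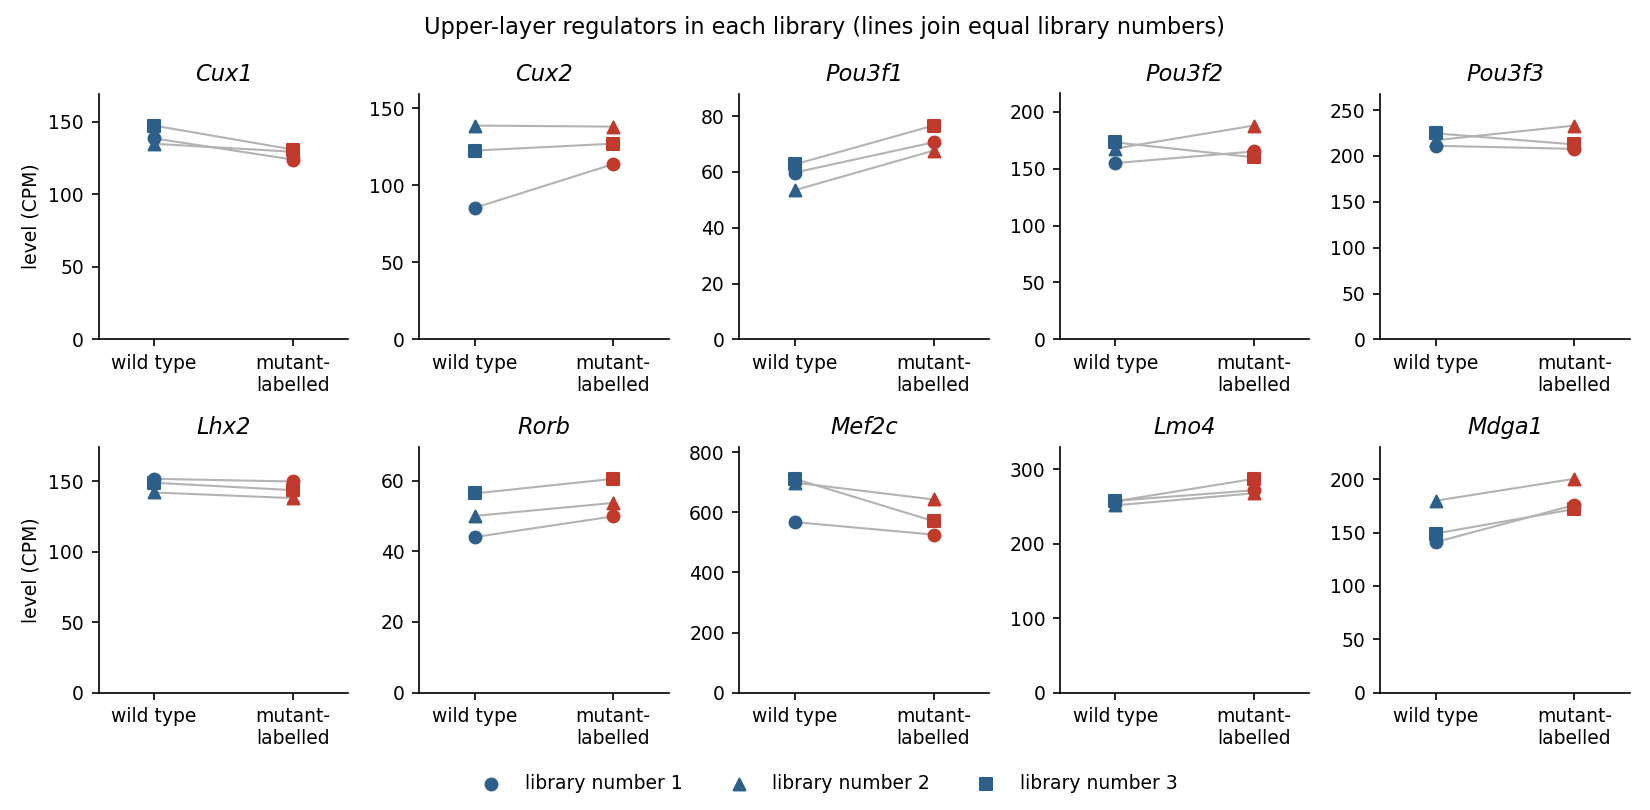
Level of each of the 10 regulators in CPM (vertical axis, from 0) in the 3 wild-type libraries (blue) and the 3 mutant-labelled libraries (red), with lines joining libraries of the same number (symbols). The red points lie above all blue points for Pou3f1 and Lmo4, lie below all of them for Cux1, and overlap them for the other 7 genes.

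The class III POU genes Pou3f1, Pou3f2 and Pou3f3 encode the transcription factors Oct6, Brn2 and Brn1, which carry a POU-specific domain and a homeodomain. Each is a gene with 1 exon. Pou3f1 was at 70.6, 67.6 and 76.6 CPM in mutant-labelled libraries 1, 2 and 3 and at 59.8, 53.5 and 62.7 CPM in wild-type libraries 1, 2 and 3. The lowest mutant-labelled library thus lay above the highest wild-type library, and the difference had the same direction in all 3 pairs. Unpaired, the log2 fold change of Pou3f1 was 0.29, with an SE of 0.08 over 3 libraries per group and an edgeR adjusted p of 0.444. With pairing it rose by 0.29 on the log2 scale, or 1.22-fold (SE 0.05, 95% interval 0.18 to 0.40 on the log2 scale, edgeR adjusted p = 0.00547). Without pair 3 the paired log2 fold change of Pou3f1 was again 0.29, with an adjusted p of 0.161. Pou3f1 also marks a class of layer 5 neurons with subcerebral axons, so its count is not specific to upper layers.

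Brn2 and Brn1 act together in upper-layer neuron production and migration, and neither gene passed in any fit. Pou3f2 was at 165, 188 and 160.0 CPM in mutant-labelled libraries 1, 2 and 3 and at 155, 168 and 173 CPM in wild-type libraries 1, 2 and 3. The groups overlapped, and the mutant-labelled library was higher in pairs 1 and 2 and lower in pair 3. Its log2 fold change was 0.05 (95% interval −0.13 to 0.23, paired −0.06 to 0.16). Pou3f3 was at 208, 233 and 213 CPM in mutant-labelled libraries 1, 2 and 3 against 211, 217 and 225 CPM in wild-type libraries 1, 2 and 3. Its group means were 217.8 and 217.6 CPM, and the log2 fold change of 0.00 had a paired 95% interval of −0.09 to 0.09.

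The ratio of Pou3f1 to Pou3f3, compared after the values had been seen, was 0.340, 0.290 and 0.360 in mutant-labelled libraries 1, 2 and 3. In the wild-type libraries with these numbers it was 0.283, 0.246 and 0.279. These ratios did not overlap between the groups, and the ratio was higher in the mutant-labelled library of every pair, by 0.26, 0.24 and 0.37 on the log2 scale. The exact two-sided permutation test over libraries gave p = 0.1, the smallest p that 3 against 3 libraries allow, and 0.3 after adjustment over the 3 ratios compared. The ratio of Pou3f1 to Pou3f2 averaged 0.422 ± 0.0596 in mutant-labelled and 0.356 ± 0.0341 in wild-type libraries (SD, n = 3), and these overlapped (exact permutation p = 0.3). Within pairs that ratio was higher by 0.15, 0.18 and 0.40 on the log2 scale. The permutation test does not use the pairs, and adjusted over 3 ratios it could not have passed with 3 libraries per group, so it does not settle whether Pou3f1 differed from its relatives.

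Mdga1 encodes a GPI-anchored adhesion protein of the immunoglobulin superfamily, known for its part in the migration of upper-layer neurons and as an inhibitor of neuroligin contacts. It was at 176, 200.3 and 172 CPM in mutant-labelled libraries 1, 2 and 3 and at 141, 180 and 149 CPM in wild-type libraries 1, 2 and 3. Library 2 was the highest of its group in both genotypes, and wild-type library 2 lay above mutant-labelled libraries 1 and 3, so the groups overlapped. Within pairs the log2 difference was 0.32, 0.16 and 0.21. The unpaired log2 fold change of Mdga1 was 0.22, with an SE of 0.10 and an edgeR adjusted p of 0.745. With pairing it rose by 0.23, or 1.17-fold (SE 0.04, 95% interval 0.14 to 0.32 on the log2 scale, edgeR adjusted p = 0.00746). Its paired log2 fold change was 0.18 without pair 1 (adjusted p = 0.0745) and 0.24 without pair 3 (adjusted p = 0.147).

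**Figure D2:**
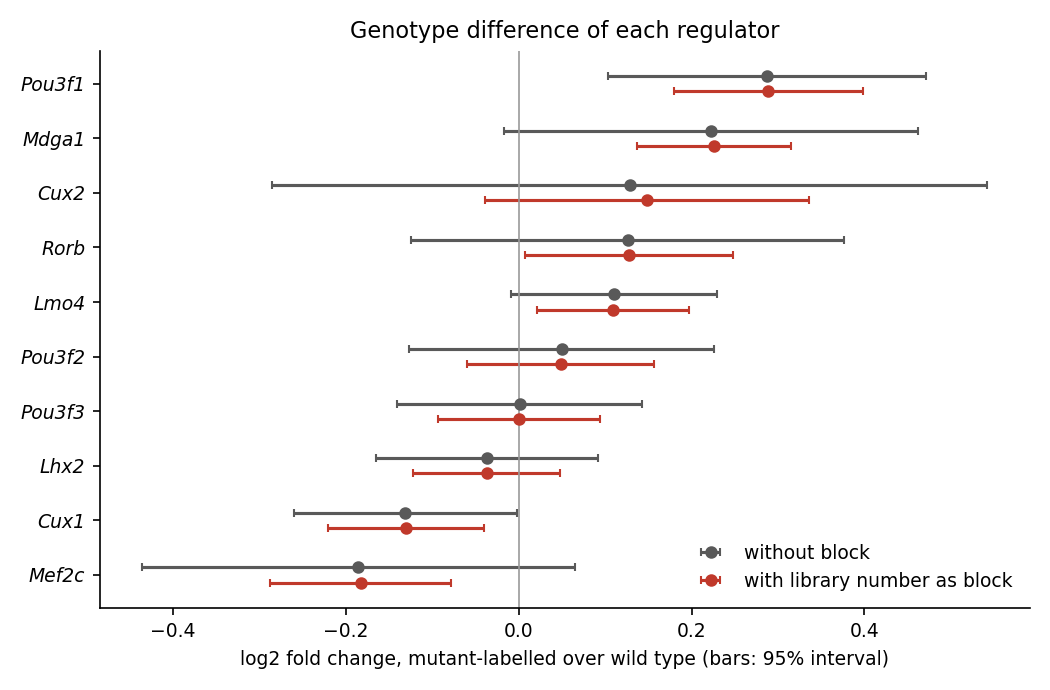
Log2 fold change of each regulator, mutant-labelled over wild type (horizontal axis), with its 95% interval from edgeR without a block (grey) and with the library number as a block (red). Pou3f1 is at the top at 0.29 and Mef2c at the bottom at −0.19, and the intervals without the block cover 0 for 8 of the 10 genes, those with it for 4.

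Lmo4, a LIM-only cofactor that marks callosal neurons and sensorimotor patterning, was at 272, 268 and 287 CPM in mutant-labelled libraries 1, 2 and 3 and at 258, 252 and 257 CPM in wild-type libraries 1, 2 and 3. Each mutant-labelled library lay above each wild-type library. The unpaired log2 difference of 0.11 (SE 0.05) had an edgeR adjusted p of 0.747, and the paired adjusted p was 0.173, so Lmo4 did not pass either test. Lhx2, a LIM-homeodomain factor of cortical progenitors and upper-layer neurons, was at 150, 138 and 144 CPM in mutant-labelled libraries 1, 2 and 3 and at 152, 142 and 149 CPM in wild-type libraries 1, 2 and 3. Lhx2 was lower in the mutant-labelled library of every pair, by 0.02 to 0.05 on the log2 scale. Its paired 95% interval of −0.12 to 0.05 covers 0.

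Cux1 and Cux2 encode cut-homeodomain factors that mark layers 2 to 4 and shape dendrites and spines. Cux1 was at 124, 129 and 131 CPM in mutant-labelled libraries 1, 2 and 3 and at 139, 135 and 148 CPM in wild-type libraries 1, 2 and 3. All mutant-labelled libraries lay below all wild-type libraries. The log2 fold change of −0.13 (SE 0.06) had an unadjusted p of 0.0477 and an edgeR adjusted p of 0.697, paired 0.116. Without pair 2, the paired log2 fold change of Cux1 was −0.17 and passed, with an adjusted p of 0.00861.

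Cux2 was at 114, 138 and 127 CPM in mutant-labelled libraries 1, 2 and 3 and at 85.3, 139 and 123 CPM in wild-type libraries 1, 2 and 3. Wild-type library 1 was the lowest of the 6, and the other 5 lay between 114 and 139 CPM. The within-pair log2 difference was 0.41 in pair 1, −0.01 in pair 2 and 0.05 in pair 3. Cux2 had a log2 fold change of 0.13 (95% interval −0.28 to 0.54), which became −0.05 without wild-type library 1. Without pair 2 the paired test called Cux2 higher, by 0.23 with an adjusted p of 0.000325, and without pair 1 its paired value was 0.02. The ratio of Cux2 to Cux1 was 0.984 ± 0.0762 in mutant-labelled and 0.825 ± 0.207 in wild-type libraries (SD, n = 3, exact permutation p = 0.3).

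Rorb, a nuclear receptor that directs layer 4 identity, was at 49.9, 53.7 and 60.5 CPM in mutant-labelled libraries 1, 2 and 3 and at 44.0, 49.99 and 56.3 CPM in wild-type libraries 1, 2 and 3. In both genotypes library 1 was the lowest and library 3 the highest, and the mutant-labelled library was higher in each pair, by 0.10 to 0.18 on the log2 scale. The groups overlapped. Rorb had a paired log2 fold change of 0.13 (95% interval 0.01 to 0.25, edgeR adjusted p = 0.252) and did not pass.

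Mef2c, a MADS-box transcription factor of cortical neurons that acts in their differentiation and in synapse number, had the highest CPM of the 10. It was at 526, 642 and 570 CPM in mutant-labelled libraries 1, 2 and 3 and at 567, 698 and 711 CPM in wild-type libraries 1, 2 and 3. The mutant-labelled library was lower in each pair, by 0.11, 0.12 and 0.32 on the log2 scale, while the groups overlapped. The unpaired log2 fold change of Mef2c was −0.19, with an SE of 0.11 and an edgeR adjusted p of 0.813. The paired value was −0.18 (SE 0.05, 95% interval −0.29 to −0.08), with an edgeR adjusted p of 0.0556 and a DESeq2 adjusted p of 0.0343, so the call depended on the tool. Without pair 3 the paired value was −0.11, with an edgeR adjusted p of 0.612.

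Counted over the 10, the groups did not overlap for 2 genes that were higher in mutant-labelled libraries and 1 that was lower, against 7.42% and 6.09% of all tested genes. The mutant-labelled library was higher in every pair for 4 genes, Pou3f1, Mdga1, Lmo4 and Rorb, and lower in every pair for 3, Cux1, Lhx2 and Mef2c, against 19.3% and 19.8% of tested genes. Cux2, Pou3f2 and Pou3f3 had pairs of both signs. The differences thus had both signs among the 10, and over so few genes these shares are a description only.

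The spread of each gene over the 6 libraries was split into parts for library number, genotype and the rest, with 2, 1 and 2 degrees of freedom. Genotype held 73.9% of the sum of squares of log2 CPM for Lmo4, 73.8% for Pou3f1 and 68.0% for Cux1. Library number held 82.9% for Lhx2, 79.1% for Rorb and 74.4% for Cux2. Mdga1 was between, with 51.5% for number and 44.5% for genotype. Library number held more than genotype for 7 of the 10, as it did for 74.2% of all tested genes. The median shares over all tested genes were 56.4% for number and 13.5% for genotype. With 2 degrees of freedom against 1, library number holds more than genotype in most genes even where neither has an effect. These counts of genes therefore do not show that library number mattered more.

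**Figure D3:**
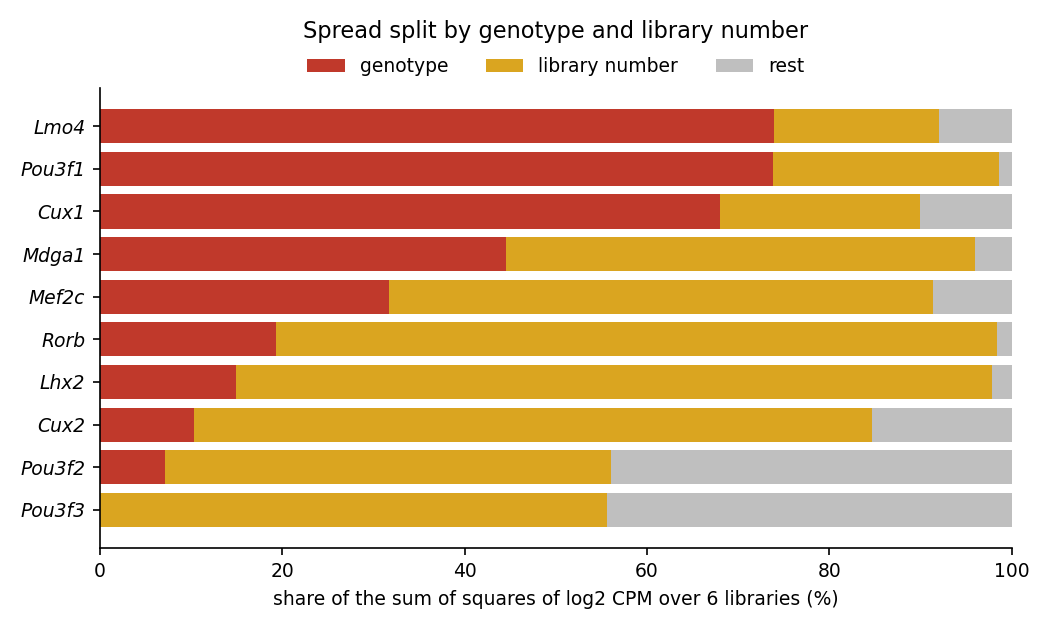
Share of the sum of squares of log2 CPM over the 6 libraries (horizontal axis, %) that falls to genotype (red), library number (yellow) and the rest (grey), for each regulator. Lmo4, Pou3f1 and Cux1 have the widest red parts, at 73.9%, 73.8% and 68.0%, and the red part of Pou3f3 is too narrow to see.

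Levels of different genes were compared per length, as CPM per kb of merged exon in the GENCODE annotation. In wild type the order was Lmo4 at 72.3 ± 0.943, Mef2c at 41.9 ± 5.07, Lhx2 at 33.6 ± 1.13, Pou3f2 at 29.6 ± 1.67 and Pou3f3 at 29.4 ± 0.918 CPM per kb (SD, n = 3). Then came Mdga1 at 16.5 ± 2.16, Pou3f1 at 15.2 ± 1.23, Cux2 at 11.5 ± 2.72, Cux1 at 7.01 ± 0.322 and Rorb at 4.52 ± 0.557 CPM per kb. The ranges of Pou3f2 and Pou3f3 overlapped, as did those of Mdga1 and Pou3f1, and Cux2 in wild-type library 2 reached 13.8 against 13.9 for the lowest Pou3f1 library. All other neighbours in this order had separate ranges in wild type. Lmo4 ranked above 96.3% of tested genes with a length, and Rorb above 43.6%. Genes with many transcript forms may be understated on this scale, because merged exons run to 20024 bases for Cux1 and 15715 for Mef2c against 3849 for Pou3f1.

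**Figure D4:**
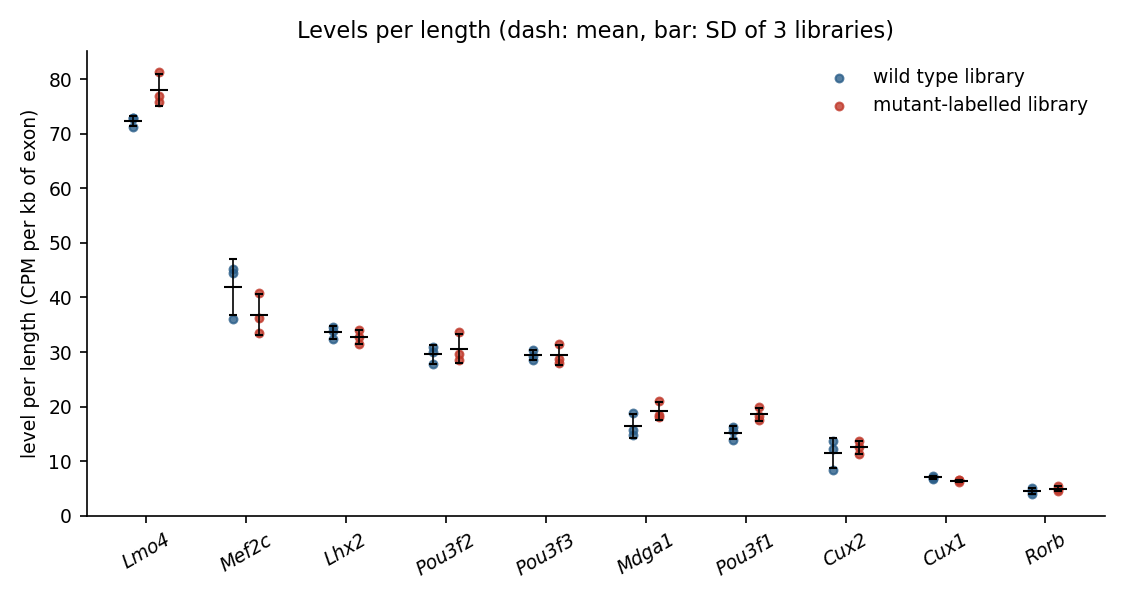
Level of each regulator per length (vertical axis, CPM per kb of merged exon, from 0) in the wild-type (blue) and mutant-labelled (red) libraries, with the mean (dash) and SD (bar) of 3 libraries. Lmo4 stands highest at 72.3 in wild type, and Cux1 at 7.01 and Rorb at 4.52 lie lowest.

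On GRCm38, the assembly that mm10 denotes, Pou3f1 lies on chromosome 4 from 124656807 to 124660655 and Pou3f2 on the same chromosome from 22482780 to 22488366. Pou3f3 lies on chromosome 1 from 42695768 to 42703176, Mdga1 on chromosome 17 from 29827949 to 29970087 and Lmo4 on chromosome 3 from 144188530 to 144205220. Cux1 occupies positions 136248135 to 136567490 of chromosome 5, and Cux2 positions 121856366 to 122050102 of it. Lhx2 lies on chromosome 2 from 38339281 to 38369733, Rorb on chromosome 19 from 18930605 to 19111196 and Mef2c on chromosome 13 from 83504034 to 83667080. The interval is the whole gene with its introns, and the table has 1 count per gene, so isoforms were not told apart. Exons of Pou3f1 share 330 bases with those of Gm2164 on the opposite strand, and exons of Cux1 share 394 with Gm16599. The sources used here do not give the strand setting of the counting, so the counts of Pou3f1 and Cux1 could hold antisense reads.

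Promoter sequences are shown for Mdga1, which rose in the paired test, and Mef2c, which had the most negative fold change, as examples from each direction. The Mef2c window was chosen from 3 after the matches were seen, as the one holding both motifs marked. They come from RefSeq on GRCm38.p6 and run from 250 bases before to 50 bases after a start, on the gene's strand; 9 of the 10 genes matched, and Pou3f1 did not. Capitals mark matches to TATAAA or TAATTA on either strand. The Mdga1 window is chr17:29887833-29888132 on the minus strand, and the Mef2c window, the second of its 3 starts in that table, is chr13:83523406-83523705 on the plus strand.
Mdga1: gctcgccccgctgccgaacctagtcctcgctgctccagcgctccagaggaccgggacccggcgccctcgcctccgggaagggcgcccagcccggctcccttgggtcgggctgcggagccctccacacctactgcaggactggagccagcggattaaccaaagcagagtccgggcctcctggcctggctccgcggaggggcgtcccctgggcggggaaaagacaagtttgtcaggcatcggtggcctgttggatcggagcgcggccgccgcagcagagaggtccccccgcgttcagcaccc
Mef2c: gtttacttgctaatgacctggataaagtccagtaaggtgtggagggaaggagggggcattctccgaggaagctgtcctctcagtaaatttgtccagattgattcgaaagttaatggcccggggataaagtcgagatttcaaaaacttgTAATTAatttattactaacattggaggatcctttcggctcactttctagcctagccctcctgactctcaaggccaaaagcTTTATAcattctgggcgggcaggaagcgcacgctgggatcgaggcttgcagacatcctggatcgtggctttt
The Mdga1 window has 71.3% G and C and 28 CpG pairs, and the Mef2c window 47.0% and 10, against medians of 52.7% and 7 over all 32851 promoters. Motifs searched on both strands in all windows of the 9 genes were the POU octamer ATGCAAAT, the TATA box TATAAA, the homeodomain core TAATTA, which reads the same on both strands, and the E-box CAGATG; none of these overlapped another in the windows shown. The Mdga1 window held none of the 4. The Mef2c window held TATAAA on the strand opposite to the gene, printed as TTTATA, with its first printed base 22 bases before the start. It also held TAATTA beginning 102 bases before the start. Of all promoters, 13.6% held TATAAA, 5.29% TAATTA, 17.2% CAGATG and 1.74% the octamer, which none of the 9 genes' windows held. Of the other Mef2c windows, the first also held TATAAA on the opposite strand, with its first printed base 107 bases before the start. The third held CAGATG, and neither held TAATTA. These matches describe letters only.

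Of 24 other upper-layer and layer 4 markers, all tested, none passed without pairing in edgeR or DESeq2. The paired edgeR test called 3 higher, none lower and 21 not past the threshold, against 1.97% of all tested genes called higher and 1.49% lower. Their median unpaired log2 fold change was −0.01, as over all tested genes. Bhlhe22, a basic helix-loop-helix factor of cortical area and axon development, was at 237, 253 and 261 CPM in mutant-labelled libraries against 192, 186 and 223 CPM in wild type, with no overlap. It rose by 0.33 in the paired test (SE 0.05, adjusted p = 0.00108). Epha3, an Eph receptor tyrosine kinase, rose by 0.30 (adjusted p = 0.00962), and Whrn, a PDZ scaffold protein gene, by 0.30 (adjusted p = 0.0395). Unpaired edgeR adjusted p for these 3 genes ran from 0.391 for Bhlhe22 to 0.842 for Epha3.

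Of 15 paralogues and cofactors of the regulators, 14 were tested. In edgeR none passed without pairing, against 0.0752% of all tested genes. With pairing Ldb2 alone was called, as higher, against 1.97% of tested genes called higher and 1.49% lower. DESeq2 called Ldb2 already without pairing (adjusted p = 0.000389), against 0.722% of the genes it tested. With pairing it called Ldb2 and Lmo3, both as higher, against 1.54%. For 4 of the 14 the groups did not overlap, all with mutant-labelled libraries higher, against 7.42% of all tested genes. Ldb2 encodes a LIM-domain binding protein, a partner of LIM factors such as Lhx2 and Lmo4. It was at 160, 167 and 168 CPM in mutant-labelled libraries 1, 2 and 3 and at 124, 129 and 136 CPM in the matching wild-type libraries, with no overlap. Ldb2 had an unpaired adjusted p of 0.123 and rose by 0.35 with pairing (SE 0.04, adjusted p = 0.000181); its close relative Ldb1 had a paired log2 fold change of 0.01. Pou3f4, the remaining class III POU gene, had a log2 fold change of 0.48 from 4.97 to 6.95 CPM without overlap and did not pass either test (paired adjusted p = 0.0544). Mef2a and Mef2d had paired log2 fold changes of 0.07 and 0.06 and Mdga2 one of −0.10. Rora was not tested: the table lists 1 to 6 reads per library, and whether the counting lost reads of this gene was not checked, so nothing is read from that level.

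**Figure D5:**
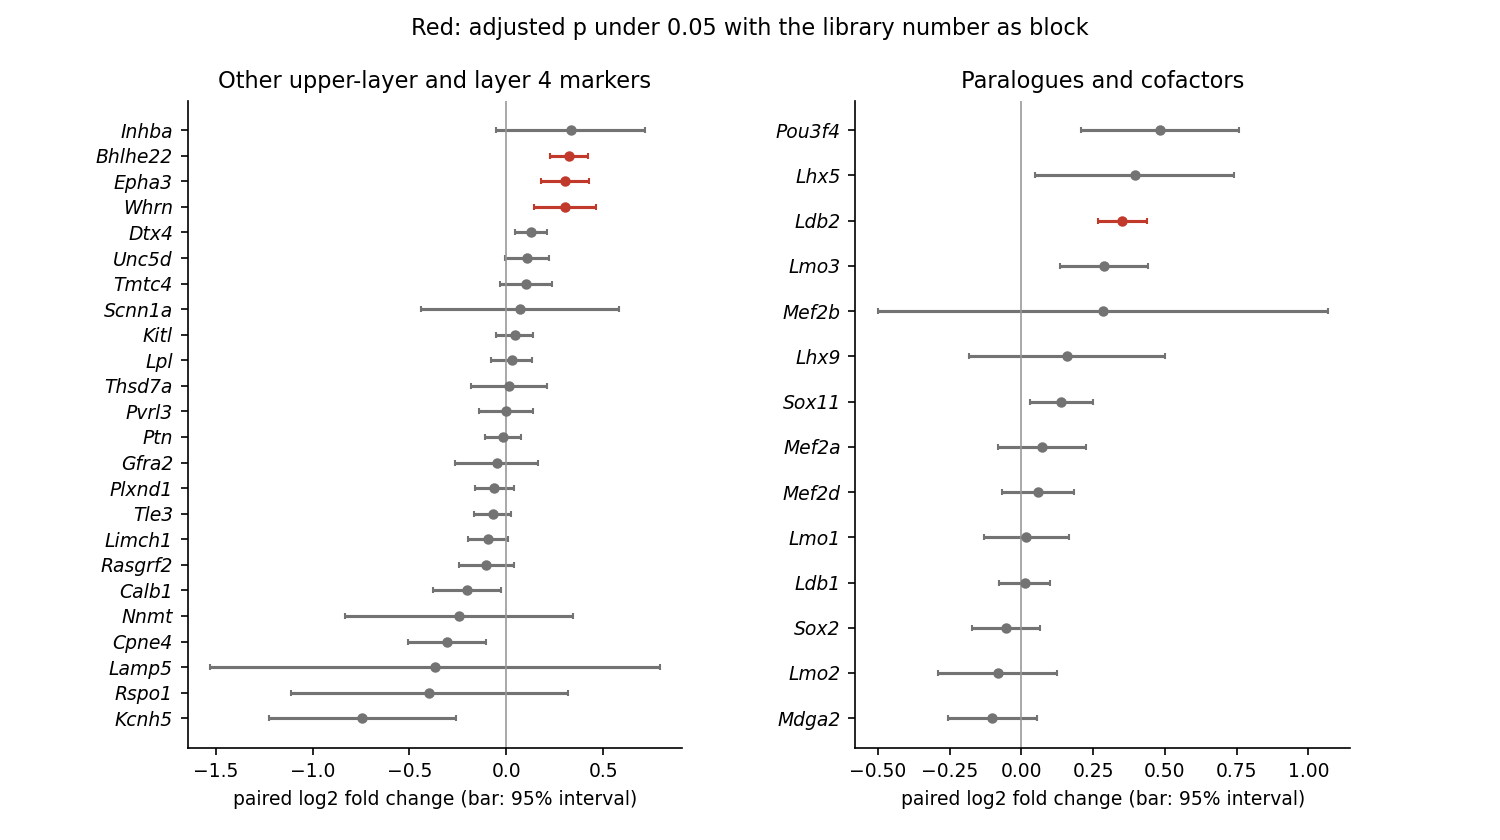
Paired log2 fold change, mutant-labelled over wild type, with its 95% interval (horizontal axis) for 24 other upper-layer and layer 4 markers (left) and 14 paralogues and cofactors (right). Red marks the genes past an adjusted p of 0.05 with the library number as a block: Bhlhe22, Epha3 and Whrn on the left and Ldb2 on the right.

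Several of the 10 genes are also made by other cells, and in whole-tissue RNA a change in the number of cells of a type and a change in RNA per cell cannot be told apart. Among 10 deep-layer neuron markers, which bear on Pou3f1, the paired test called Fezf2, Bcl11b and Ldb2 higher and none lower. The shares of all tested genes were 1.97% called higher and 1.49% lower. Ldb2 is also the gene called among the paralogues and cofactors above. Of the 10 deep-layer markers, 8 had a positive and 2 a negative log2 fold change, with a median of 0.10. The summed level was 1210 to 1268 CPM in mutant-labelled and 1055 to 1160 CPM in wild-type libraries, without overlap, and 4 of the 10 did not overlap as single genes, against 7.42%. Among 10 radial glia markers, which bear on Lhx2 and Pou3f2, none passed, and 7 had a negative and 3 a positive log2 fold change, with a median of −0.03. Their sum was nevertheless 1821 to 1853 CPM against 1744 to 1790 CPM, without overlap, with the abundant Fabp7 at a mean of 661 against 627 CPM and Ptprz1 at 483 against 452 CPM. Interneuron markers, which bear on Mef2c and Cux2, summed to 673 to 768 CPM against 698 to 845 CPM. Of these 12 the paired test called Sp8 higher and Npy lower, against 1.97% and 1.49% of all tested genes. Microglia markers, which bear on Mef2c, summed to 58.5 to 76.3 CPM against 61.5 to 80.4 CPM, and none of 8 passed. Hippocampal markers, which bear on Lhx2, summed to 171 to 185 CPM against 158 to 168 CPM without overlap. Most of that sum was Nrp2, at a mean of 108 against 95.5 CPM, and Neurod1, at 45.9 against 39.5 CPM. None of the 7 hippocampal markers passed, and 4 of them had a negative log2 fold change. In the other lists the paired test called Neurog2 of 5 intermediate progenitor markers higher by 0.46 and Gpr17 of 6 oligodendrocyte markers higher by 0.31. It called Penk of 10 striatal markers lower, with a log2 fold change of −0.55. The shares of all tested genes were again 1.97% called higher and 1.49% lower. The paired test called none of 8 vessel and none of 6 thalamic markers. No tested marker was at 0 throughout, and the part of these cells in the differences above was not tested.

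For the regulators called in the paired test, the genes with the most similar levels over the 6 libraries were found among 10602 others with a mean log2 CPM of at least 3. For Pou3f1 these were Prune2, Igfbp5 and Polrmt, with Pearson correlations of 0.992, 0.991 and 0.988 of log2 CPM. For Mdga1 they were Zc3hav1l, Akna and Zfp354c, with 0.998, 0.997 and 0.996. The 6 points share genotype and library number, and each value was picked as among the highest of 10602, so it carries no test. Of these 6 genes, the 3 like Mdga1 passed the paired test (edgeR adjusted p = 0.0117, 0.0491 and 0.0103), against 3.46% of all tested genes. The 3 like Pou3f1 did not pass (edgeR adjusted p = 0.0545, 0.0506 and 0.320), though Prune2 and Igfbp5 lay close to the threshold. All 6 were picked for levels like those of a called gene in the same libraries. Whether they passed therefore adds no support to the calls of Mdga1 and Pou3f1.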

How the data were processed

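Per the labels' protocols, libraries from pooled embryonic neocortex RNA used a TruSeq kit that marks strand. The deposited values are raw read counts per gene symbol, not normalized by the authors. Build mm10 and HTSeq 0.5.3p9, Bowtie2 2.1.0, TopHat2 2.0.9 and CASAVA 1.8.2 appear in the submitters' processing notes; the sources used here do not give their roles, settings, annotation or strand setting. All 10 members were matched by symbol.

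Genotypes were compared on the counts by edgeR 4.0.16 under R 4.3.3 (default expression filter, TMM scaling, robust quasi-likelihood test, two-sided) over 14618 genes, with Benjamini-Hochberg adjustment and a threshold of 0.05. SEs come from the F statistic. Log2 CPM used a prior count of 2. The fit without a block was the main one. The fit with library number as a block was given beside it because all 3 same-numbered pairs correlated above 0.1. The labels do not state pairs, and this reason comes from the same counts, so paired p-values may be too small. Same-genotype libraries differed beyond counting noise (chi-square per degree of freedom 7.13 to 23.1). Unpaired p-values set the genotype difference against the spread among pools of one genotype, and paired ones against the spread left after library number. Whether pools shared litters is not stated, so whether the pools were independent is not known. Alternatives were DESeq2 1.42.0, other scalings, no filter and left-out libraries or pairs. 

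The members and gene lists were chosen with earlier results of these data known. Named genes were the 10 members, Tshz3, genes of the lists of other markers and of paralogues called in either edgeR fit, and for each called member the 3 most correlated genes. Others, named after their values were seen, are relatives of the members or cell type markers, called or not. Some genes of the marker lists are not reported here and were left out of the list counts and sums after their values were seen; every test still ran over all tested genes.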

Additional observations from a re-analysis of the deposited data

How the results depend on the processing

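The counts of calls depended on the pairing and on single libraries. Over all tested genes, 11 passed without pairing, 506 with library number as a replicate block, 102 with DESeq2, 195 with DESeq2 and the block, and 20 without the expression filter. They ranged from 3 to 35 when 1 library was left out and from 62 to 1874 with the block when 1 pair was left out, which leaves 1 residual degree of freedom, with 295 without pair 1. Of the 10 regulators, 0 passed unpaired, 2 with the block, 3 with DESeq2 and the block, and 0 to 5 with the block when a pair was left out. Of the 24 other markers, 3 passed with the block, 1 with DESeq2 and the block, and 1 to 8 with a pair left out. Of the paralogues and cofactors, 1 passed with the block, 1 with DESeq2, 2 with DESeq2 and the block, and 1 to 3 with a pair left out.

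No regulator passed unpaired with any 1 library left out, with RLE or library-total scaling, or without the filter. These scalings moved the median of all genes by less than 0.1 on the log2 scale. The log2 fold change changed sign for 3 regulators, none of them called in the fit on all libraries. With 1 library left out it ran from −0.051 to 0.28 for Cux2 (negative without wild-type library 1), from −0.023 to 0.10 for Pou3f2 (negative without mutant-labelled library 2) and from −0.050 to 0.035 for Pou3f3 (negative without either of these). With the block and no pair 2 it was −0.0096 for Pou3f2 and −0.051 for Pou3f3. The other 7 kept their sign in every fit run. The cause of these dependencies was not tested. The unpaired 95% interval was widest for Cux2, from −0.28 to 0.54 on the log2 scale. Without pairing, a Cux2 difference of either sign within that range thus remained possible.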
